A study of Rattus norvegicus with 6 samples.

Results

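The 9 genes described here encode proteins of the tight junction: the claudins Cldn1, Cldn2, Cldn3, Cldn4, Cldn7 and Cldn15, occludin (Ocln), junctional adhesion molecule A (F11r) and zonula occludens 1 (Tjp1). They were taken as every probe of the array, other than control probes, whose RefSeq accession belongs to one of them, and they are 9 of the 13837 gene symbols named on the array, carried by 16 of 41012 probes. RNA of rat jejunum was measured on 1-colour Agilent arrays, on which each spot holds copies of 1 short DNA probe. There were 3 arrays labelled control and 3 labelled S3d. All rats were male Sprague-Dawley animals of 6 weeks and 200 ± 20 g, kept at 25°C and 60% relative humidity, and the S3d group was in addition given heat of 35°C with shaking (0.1 × g) on 3 days, 2 h daily. Each sample was RNA pooled from 3 rats. The labels give 10 rats per group, do not say whether pools shared rats, and describe a washed and minced section of jejunum, so the p-values measure the spread between these arrays, which may be partly technical. The paper gives fewer rats per group than separate pools would need, and if that holds some pools shared rats and the p-values are too small.

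Tight junctions seal the space between neighbouring epithelial cells near their apical border. Claudins set what passes: some form charge-selective or water-permeable pores, and others tighten the seal. Occludin and junctional adhesion molecule A are further membrane proteins of the strand region, and zonula occludens 1 is the PDZ scaffold that ties claudins and occludin to the actin ring. In the small intestine, the pore-forming claudins 2 and 15 carry most of the paracellular sodium that sugar and bile acid uptake depend on. The comparison between control and S3d asked how the messages of these proteins stood after repeated heat and shaking.

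Promoters were available from RefSeq for 7 of the 9 genes (assembly GRCr8). The 250 bases before the annotated start of 4 of them are shown, because these 4 hold CACCTG, the letters of an E-box that Snail-type repressors are known to bind, and because 2 of them belong to genes lower on the arrays labelled S3d (Cldn3 and Cldn7) and 2 to genes higher there (Ocln and F11r). The Cldn3 promoter lies at chr12:27346548-27346797, minus strand, that of Cldn7 at chr10:55188420-55188669, plus strand, that of Ocln at chr2:33441199-33441448, minus strand and that of F11r at chr13:86405979-86406228, plus strand. Each is written 5′ to 3′ on the strand of its gene, and capitals mark CACCTG and the GC box GGGCGG, each read on either strand, and, in F11r, a pair of heat shock element units, GAANNTTC.
Cldn3: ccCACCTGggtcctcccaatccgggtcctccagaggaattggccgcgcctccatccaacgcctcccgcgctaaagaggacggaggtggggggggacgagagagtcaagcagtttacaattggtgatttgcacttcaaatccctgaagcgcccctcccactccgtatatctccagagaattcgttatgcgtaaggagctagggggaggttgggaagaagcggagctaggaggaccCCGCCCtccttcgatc
Cldn7: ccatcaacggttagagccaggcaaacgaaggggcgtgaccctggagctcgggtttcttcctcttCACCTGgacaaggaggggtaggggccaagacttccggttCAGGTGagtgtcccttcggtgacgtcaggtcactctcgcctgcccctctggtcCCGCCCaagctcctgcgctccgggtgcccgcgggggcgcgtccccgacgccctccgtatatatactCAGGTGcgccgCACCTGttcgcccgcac
Ocln: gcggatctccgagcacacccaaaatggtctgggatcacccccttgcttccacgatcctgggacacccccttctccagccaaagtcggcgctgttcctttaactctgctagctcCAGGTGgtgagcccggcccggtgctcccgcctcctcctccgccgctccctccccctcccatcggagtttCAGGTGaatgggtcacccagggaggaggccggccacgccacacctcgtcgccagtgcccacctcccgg
F11r: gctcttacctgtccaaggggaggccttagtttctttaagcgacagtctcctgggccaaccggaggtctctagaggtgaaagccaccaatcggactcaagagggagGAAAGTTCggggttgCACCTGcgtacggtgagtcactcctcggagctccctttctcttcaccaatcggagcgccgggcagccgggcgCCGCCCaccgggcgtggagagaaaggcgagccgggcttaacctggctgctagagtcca
Searched on both strands, CACCTG was present in 4 of the 7 promoters and in 15.6% of all 27457 rat promoter windows of the same length. Cldn7 held 4 copies and Ocln 2 copies. GGGCGG was present in 5 of the 7 (Cldn1, Cldn3, Cldn7, Cldn15 and F11r) and in 32.4% of all windows, GAANNTTC in F11r alone of the 7 and in 7.02% of all windows, and TATAAA in none of the 7 and in 13.1%. A match describes letters in this window and does not show that a factor binds there. The E-box letters were found before genes of either direction, as the values below show.

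Several facts of the series bear on every value. The control arrays were 1 slide and the S3d arrays another, with 450 days between their scans, so slide, scan and group cannot be told apart. On the scale of the processed signal, the 75th percentile was between 414.4 and 430.1 on the control arrays and between 1456.1 and 1565.7 on the S3d arrays. Between 69.1% and 81.5% of spots were well above background, and none was saturated. Each column of the authors' normalized table followed the scanner output of the same-numbered replicate of the opposite group (Spearman's rho at least 0.99999), and its rho with its own sample was lower (0.941 to 0.948). The scanner output and the table thus carry exchanged group labels, and no sample was reassigned. Every signed value below is S3d minus control by the labels of the scanner output, and by the labels of the table each of the 9 genes has the other sign. The directions that the study gives for its arrays, and for genes it measured by RT-PCR, run with the labels of the table, so the signs here are opposite to the study's. Which of the sources has its labels exchanged was not settled. S3d replicate 1 stood apart: pancreatic enzyme messages were high on that array. Cpa1 was at 7.09 on it and between -8.20 and -6.85 on the 5 others (log2 signal relative to the array's 75th percentile), Cpb1 at 8.42 against -7.96 to -5.67, and Cel at 5.94 against -3.48 to -2.49. The liver genes Alb and Serpina1 did not stand out on it (-1.15 and 0.12 relative to the mean of the other S3d arrays). The values of the 9 genes are therefore also given without this array.

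On the arrays labelled S3d, the messages of Cldn4, Ocln and F11r were higher, and those of Cldn2, Cldn3, Cldn7 and Cldn15 were lower, each on the brightest probe of the gene and relative to the 75th percentile of the array (limma over all 31367 probes tested, adjusted p under 0.05). The brightest Tjp1 probe was also called higher, but 2 of its 4 probes were lower. The other Cldn4 probe was called lower (-0.34, adjusted p = 0.038), and the mean of both was not called. With each array centred on its median, Ocln and F11r were not called (adjusted p = 0.091 and 0.063). Cldn1 was called higher too, after passing the filter on dim probes only through the S3d arrays, where it is high. None of the 4 falls was called where the arrays were left unscaled or were scaled on spike-in probes. Among all 11489 named genes tested, 73.5% passed the same threshold (36.1% higher, 37.4% lower), and the 9 of 9 called genes (8 of 8 without Cldn1) are read against that share. Of the 16 probes, 15 were tested and all 15 were called, 7 higher and 8 lower. Over all probes tested, 73.9% were called (39.4% higher, 34.5% lower). The median log2 fold change was -0.34 over the 15 probes, 0.32 over the 9 brightest probes and 0.08 over all probes tested. A fold change of at least 1.5 was passed by 10 of the 15 probes, 4 higher and 6 lower, and by 52.4% of all probes (29.2% higher, 23.3% lower). The 2 groups did not overlap for any of the 15 probes, nor for 78.3% of all probes tested. In bulk tissue, fewer cells of a type and less RNA per cell cannot be told apart.

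**Figure D1:**
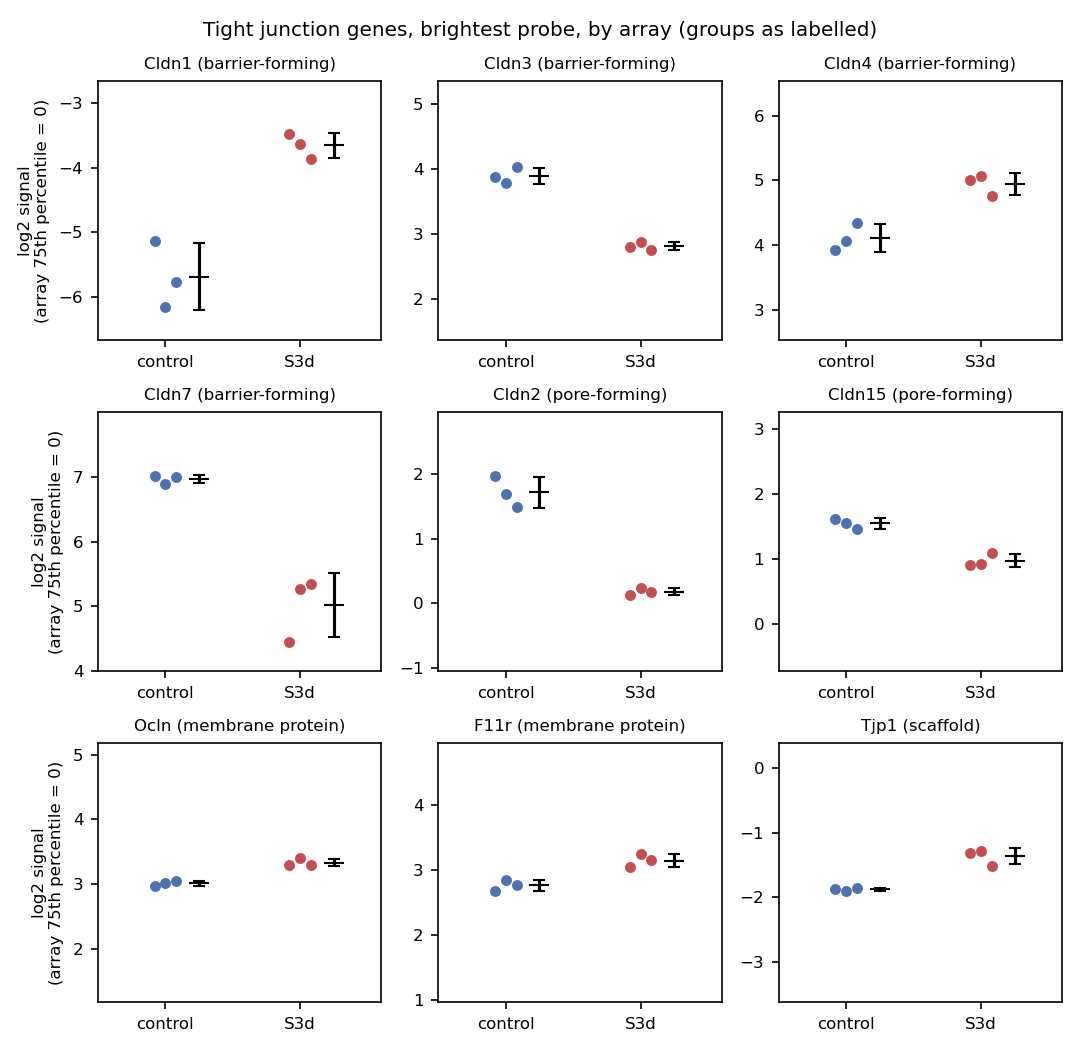
Log2 signal of the brightest probe of each gene on the 3 arrays labelled control (blue) and the 3 labelled S3d (red), relative to the 75th percentile of the array, with mean ± SD beside the points. Each panel spans 4 log2 units, and in all 9 panels the points of the groups do not overlap.

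Among the claudins known to tighten the seal, Cldn7 and Cldn3 fell relative to the array. With spike-in scaling both rose (log2 fold change 0.57 for Cldn7 and 1.43 for Cldn3). With the arrays unscaled Cldn3 rose (0.76) and Cldn7 was not called (-0.10). Claudin 7 is an abundant claudin of intestinal epithelium that also lies along the lateral membrane. Its log2 signal was 7.01, 6.89 and 7.0 on the control arrays and 4.45, 5.27 and 5.35 on the S3d arrays. The control arrays lay together, and S3d replicate 1 was the lowest of its group, below the other S3d arrays by more than these differed from each other. The fall was 3.84-fold (log2 fold change -1.94 ± 0.243, SE, adjusted p = 6e-04, n = 3 per group), and without S3d replicate 1 the log2 fold change was -1.66. Cldn3, a sealing claudin, was at 3.88, 3.78 and 4.03 against 2.80, 2.88 and 2.75. All S3d arrays lay below all control arrays, and the arrays of each group lay close together, with a 2.13-fold fall (log2 fold change -1.09 ± 0.086, SE, adjusted p = 9.2e-05) that was -1.08 without S3d replicate 1.

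Cldn4, which is known to restrict the passage of cations, rose on its brightest probe and not on its other probe. The brightest probe (A_44_P975437) was at 3.92, 4.07 and 4.34 on the control arrays and at 5.01, 5.07 and 4.76 on the S3d arrays. The rise was 1.79-fold (log2 fold change 0.84 ± 0.137, SE, adjusted p = 0.002), and without S3d replicate 1 it was 0.81 on the log2 scale. The other probe (A_44_P299550) was at 1.91, 2.09 and 2.26 against 1.77, 1.87 and 1.6. It was slightly lower on all S3d arrays (log2 fold change -0.34 ± 0.117, SE, adjusted p = 0.038). This call was lost with quantile normalization (-0.22, adjusted p = 0.14) and without control replicate 2 (adjusted p = 0.09), control replicate 3 (0.1), S3d replicate 1 (0.071) or S3d replicate 3 (0.11), at log2 fold changes from -0.35 to -0.25. It was also lost with the replicate number as a block (limma, adjusted p = 0.084) and with a one-way analysis of variance (adjusted p = 0.074). The same held without a filter on dim probes (limma, adjusted p = 0.058) and with the local background subtracted (-0.19, adjusted p = 0.1). The 2 probes differed in their fold change by 1.18 ± 0.056 (SE, adjusted p = 8.2e-06), and the mean of both gave 0.25 (adjusted p = 0.12). The direction given for Cldn4 is therefore that of 1 probe. Cldn3 and Cldn4 are neighbouring protein-coding genes on rat chromosome 12.

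Cldn1, a claudin needed for the barrier of many epithelia, was dim. Its brighter probe (A_44_P285463) was at -5.13, -6.15 and -5.77 on the control arrays, well above background on 1 of them, and at -3.48, -3.63 and -3.86 on the S3d arrays, well above background on all 3. The S3d arrays lay above the control arrays, by 2.03 on the log2 scale (1.94 without S3d replicate 1). This probe could be tested only because it is high on the S3d arrays, and the control level is mostly not above background, so its size and its call are not given as support. Its processed signal was between 6.01 and 11.8 on the control arrays and between 108 and 130 on the S3d arrays. With the local background subtracted and an offset of 50 the log2 fold change was -0.15 (adjusted p = 0.16), so the direction rests on how such low signals are treated. The other probe (A_43_P12641) was well above background on 1 S3d array and no control array, and was not tested. It was at -6.81, -8.16 and -7.17 against -6.30, -5.92 and -6.42, and the least level that counts as above background on the control arrays leaves no fold change to state.

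The fold changes of all probes moved with their level, and the claudins are read beside this. The median log2 fold change was 0.71 over the 7153 tested probes with a mean log2 signal under -4, which include Cldn1. Over the 3087 of them above background on all 6 arrays it was 0.09, and the others had passed the filter through a single group. The median was -0.26 over the 2985 probes from 2 to 4, which include Cldn3, Ocln and F11r. It was -0.50 over the 1215 probes from 4 to 6, which include Cldn7 and the brightest Cldn4 probe, and -0.94 over the 508 probes at 6 or more. The quartiles of the probes from 4 to 6 were -0.90 and -0.02, with Cldn7 (-1.94) below and Cldn4 (0.84) above them. The part of signal level in these differences was not tested.

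Both claudins known as pores were lower on the S3d arrays relative to the array as a whole, and higher with the arrays unscaled (not called for Cldn2) or scaled on spike-in probes. Claudin 2 forms a channel for cations and water and is known from crypts. Its brightest probe (A_44_P838355) was at 1.97, 1.69 and 1.49 on the control arrays and at 0.12, 0.23 and 0.18 on the S3d arrays. The lowest control array lay more than 1 unit above the highest S3d array. The fall was 2.91-fold (log2 fold change -1.54 ± 0.13, SE, adjusted p = 0.00012) and was -1.51 on the log2 scale without S3d replicate 1. The other Cldn2 probe (A_44_P433905), at -1.28, -1.10 and -1.62 against -3.29, -3.03 and -3.07, gave -1.79 ± 0.152 (SE, adjusted p = 0.00012). The difference between the fold changes of these 2 probes, 0.25 ± 0.129 (SE), was not called (adjusted p = 0.11), and its sign was the same without S3d replicate 1 (0.20).

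Cldn15, the claudin pore for sodium of the small intestine, was at 1.62, 1.56 and 1.46 on the control arrays and at 0.91, 0.92 and 1.09 on the S3d arrays. The fall was smaller than that of Cldn2, 1.49-fold (log2 fold change -0.58 ± 0.083, SE, adjusted p = 0.0011), and the difference between the genes was not tested. Without S3d replicate 1 it was -0.54.

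How far the pore-forming claudins fell below the barrier-forming ones depended on Cldn1, which was tested only through the S3d arrays. Among claudins above background on all 6 arrays, the mean log2 fold change of the pore-forming ones minus that of the barrier-forming ones was -0.33, without a test, because it is a score over chosen genes. With Cldn1 the mean log2 fold change of Cldn2 and Cldn15 minus that of Cldn1, Cldn3, Cldn4 and Cldn7 was -1.02. Within an array the scaling cancels in this difference. Relative to the control mean the difference with Cldn1 was 0.07, 0.16 and -0.23 on the control arrays and -0.99, -1.14 and -0.92 on the S3d arrays. With Cldn1 included the groups did not overlap, and the SD between arrays of a group was 0.17. Without Cldn1 the groups overlapped: control replicate 3 (pore-forming -0.16, barrier-forming 0.13) had a lower difference than S3d replicate 1 (-1.12 and -0.90). The pore-forming claudins alone were at -1.12, -1.06 and -1.0 on the S3d arrays, and the barrier-forming ones at -0.13, 0.08 and -0.07. In the latter mean the values of Cldn1, which are not given as support, and of the brightest Cldn4 probe offset those of Cldn3 and Cldn7. Without the dim Cldn1 the barrier-forming claudins were at -0.90, -0.58 and -0.70, which gives the -0.33. With Cldn1 but without Cldn7 the contrast was -1.65. Relative to the array, both pore-forming claudins were lower. Of the barrier-forming ones Cldn3 and Cldn7 were lower, and Cldn4 was higher on 1 of its 2 probes. Cldn1 is left out of this statement.

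**Figure D2:**
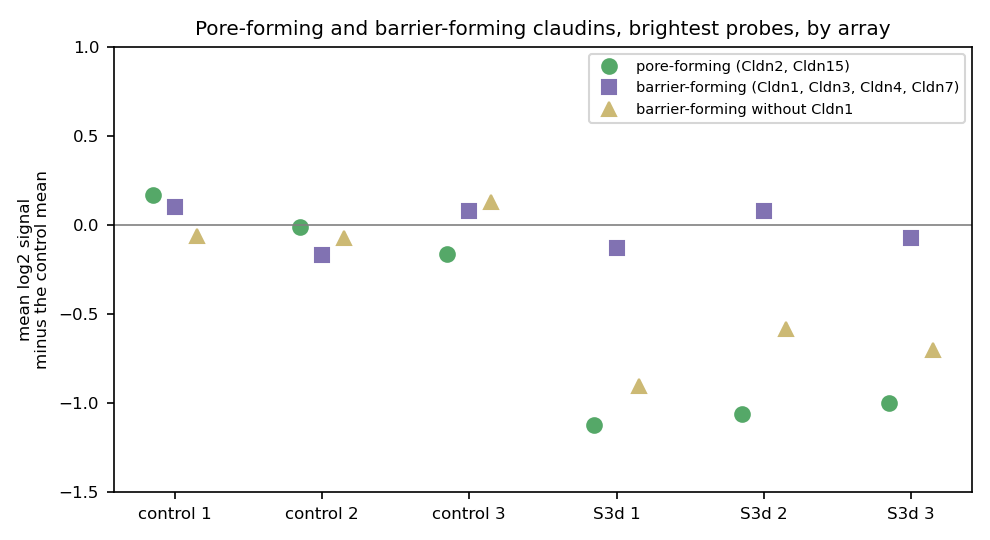
Mean log2 signal of the pore-forming claudins (circles), of all 4 barrier-forming claudins (squares) and of the latter without Cldn1 (triangles) on each array, minus the mean of the control arrays. On the S3d arrays the circles lie between -1.12 and -1.0 and the squares between -0.13 and 0.08, while the triangles lie between -0.90 and -0.58.

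The membrane proteins outside the claudin family rose, by 1.25-fold to 2.12-fold over their 3 probes. Occludin, the first integral protein of the junction to be described and a regulator of it, was at 2.97, 3.02 and 3.05 on the control arrays and at 3.30, 3.40 and 3.30 on the S3d arrays on its brightest probe (A_44_P1007729). The arrays of a group differed by 0.10 or less, and the rise was 1.25-fold (log2 fold change 0.32 ± 0.064, SE, adjusted p = 0.0047). The other Ocln probe (A_43_P12552) was at 0.97, 0.97 and 1.03 against 2.03, 2.17 and 2.03, a 2.12-fold rise (log2 fold change 1.08 ± 0.068, SE, adjusted p = 4.2e-05). The probes rose alike in direction and not in size, since their fold changes differed (brightest minus other -0.76 ± 0.05, SE, adjusted p = 2.3e-05).

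F11r encodes an immunoglobulin-type adhesion molecule that helps to set cell polarity and lets leukocytes pass between cells. It was at 2.67, 2.85 and 2.77 on the control arrays and at 3.04, 3.25 and 3.15 on the S3d arrays. The 1.30-fold rise (log2 fold change 0.38 ± 0.084, SE, adjusted p = 0.007) was 0.43 without S3d replicate 1, and that of Ocln was 0.34. With each array centred on its median instead, the log2 fold changes of Ocln and F11r were 0.14 (adjusted p = 0.091) and 0.20 (adjusted p = 0.063), and neither was called.

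For the scaffold Tjp1, the direction depended on the probe. All 4 of its probes carry the same RefSeq accession. The brightest over all 6 arrays (A_44_P978901) was at -1.87, -1.91 and -1.86 on the control arrays and at -1.32, -1.28 and -1.51 on the S3d arrays, and another (A_44_P978899) was at -2.56, -2.64 and -2.41 against -1.5, -1.41 and -1.64. Both rose, by 0.51 ± 0.08 (log2, SE, adjusted p = 0.0017) and 1.02 ± 0.095 (SE, adjusted p = 0.00018). The remaining 2 fell. Probe A_44_P238710 was at -0.88, -1.14 and -0.93 against -3.13, -2.95 and -3.09 (log2 fold change -2.07 ± 0.096, SE, adjusted p = 1.9e-05). On the control arrays alone this probe was the brightest, so the change itself decided which probe stands for the gene. Probe A_44_P314634 was at -1.85, -2.12 and -2.05 against -5.07, -4.79 and -4.98 (log2 fold change -2.94 ± 0.11, SE, adjusted p = 1.3e-05), the largest fall of the 15 probes. On every probe all 6 arrays were well above background, and the groups did not overlap.

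Within an array the scaling cancels between probes of 1 gene, so their disagreement was tested directly. The brightest Tjp1 probe (0.48 on the log2 scale without S3d replicate 1) differed in fold change from the falling probes by 2.58 ± 0.088 (SE, adjusted p = 4.2e-06) and 3.44 ± 0.103 (SE, adjusted p = 3.9e-06), and from the other rising probe by -0.51 ± 0.065 (SE, adjusted p = 0.00045). Without S3d replicate 1 these values were 2.52, 3.36 and -0.53. The mean over the 4 probes was lower on the S3d arrays (log2 fold change -0.87, adjusted p = 0.00019), opposite to the brightest probe. No single direction can be given for the Tjp1 message, and which part of the transcript each probe reads was not analysed here. Among all 3200 such pairs on the array, 80.1% differed by the same test and 19.2% were called in opposite directions, as were 3 of the 6 pairs of the 9 genes (that of Cldn4 by the call of its dimmer probe that 1 left-out array could end), and 21.7% of the 2600 genes with several tested probes had a probe called against the brightest. Of the 4 junction genes with several tested probes, Cldn4 and Tjp1 were of this kind, and Cldn2 and Ocln were not.

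**Figure D3:**
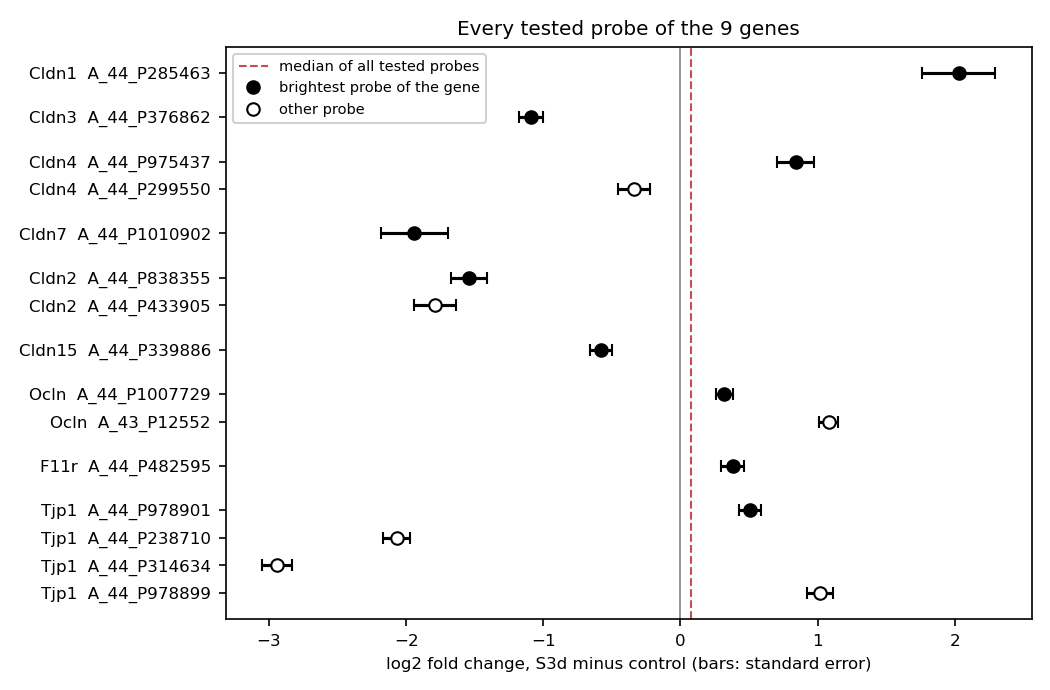
Log2 fold change of each tested probe of the 9 genes, S3d minus control by the scanner labels, with its standard error (n = 3 arrays per group). Filled circles are the brightest probe of a gene, open circles its other probes, and the dashed line is the median of all probes tested (0.08). The open circles of Cldn4 and 2 of those of Tjp1 lie on the other side of 0 from the filled ones.

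The sign of the falling claudins also depended on how the arrays were put on a common scale. The 75th percentile was 1.85 higher (log2) on the S3d arrays, while the spike-in probes, which read control RNA added for labelling, were 0.67 lower there. Scaled on the spike-in probes, the median log2 fold change of all probes was 2.60 and all 9 genes were higher, Cldn3 by 1.43, Cldn7 by 0.57, Cldn2 by 0.98 and Cldn15 by 1.94. Without any scaling the median was 1.93, and Cldn3 (0.76) and Cldn15 (1.27) were higher, with Cldn2 at 0.31 and Cldn7 at -0.10 (not called). Each of these scalings moves all probes of an array by 1 amount, so the order of the fold changes stays as it was. Lower and higher are relative to the array as a whole.

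**Figure D4:**
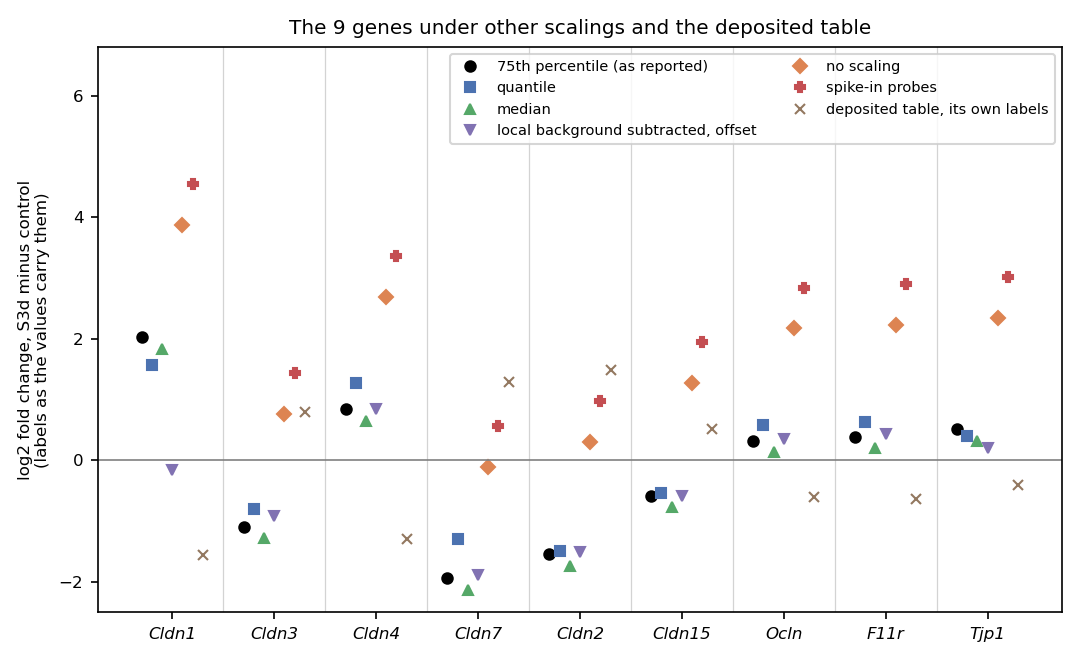
Log2 fold change of the brightest probe of each gene with the scaling used here (black circles), under 5 other treatments of the same scanner values, and from the deposited normalized table by its own labels (crosses). Cldn3, Cldn2 and Cldn15 cross 0 where the arrays are not scaled or are scaled on spike-in probes. Cldn7 crosses 0 with spike-in scaling, and Cldn1 with the local background subtracted. The crosses lie on the other side of 0 from the black circles for all 9 genes.

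Other genes of cell junctions were read from a list of 63, of which 51 had a named probe and 48 were tested. On the S3d arrays 12 were higher, 24 were lower and 12 were not called, with a median log2 fold change of -0.22, where 36.1% of all named genes were higher and 37.4% lower. The group counts that follow are read against the same shares. With the arrays unscaled 44 of the 48 were higher and 1 lower, so these counts too are relative to the array. Of the 8 other claudins above background on all 6 arrays 3 were higher and 3 lower, with a median of -0.10. Another 4, all called higher, passed the filter only through the S3d arrays, where they are high, and with them 7 of 12 were higher (median 0.58). With the local background subtracted and an offset of 50, 4 of the 12 were higher and 7 lower (median -0.55). Among these 4 were the highest log2 fold changes of the list, Cldn19 (2.54), known from kidney and retina, Cldn22 (2.15) and Cldn6 (2.04), a claudin of embryonic epithelia. They were well above background on 2, 1 and 0 of the control arrays. In the processed signal the S3d mean of Cldn6 was -5.17, and the least level that counts as above background on the control arrays was -6.07. With the local background subtracted the log2 fold changes of Cldn19, Cldn22 and Cldn6 were 0.30, 0.03 and -0.71, so no direction is given for them.

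The polarity genes, whose products set the apical border, were mostly lower, with 7 of 8 lower, none higher and a median of -0.61 (1.24 with the arrays unscaled and 1.91 with spike-in scaling). Of the contractile regulators, genes of the actin ring that smooth muscle also expresses, 3 of 4 were lower, with a median of -1.12 (0.72 with the arrays unscaled and 1.39 with spike-in scaling). The lowest of them was Mylk, the myosin light chain kinase known to open the junction by contraction of the ring, at -1.57 ± 0.066 (SE, adjusted p = 1.5e-05). Of 5 smooth muscle markers in the same samples 2 were lower (Des at -1.19 and Tagln at -0.96), 1 was higher (Myh11 at 0.98) and 2 were not called, and their part in these falls was not tested. In the adherens junction and desmosome group 7 of 10 were lower and 1 was higher, with a median of -0.30 that was 1.54 with the arrays unscaled and 2.21 with spike-in scaling. It held the 2 lowest genes of the whole list. These were Ctnnd1, the p120 catenin that holds cadherins at the membrane, at -3.08 ± 0.113 (SE, adjusted p = 1.3e-05), and Pkp2, a desmosomal plaque protein, at -1.83 ± 0.059 (SE, adjusted p = 1.1e-05). The other membrane proteins (2 of 8 higher, 2 lower, median -0.07) and the other scaffolds (2 of 6 higher, 2 lower, median 0.00) were divided. Without S3d replicate 1 the list again gave 12 higher and 24 lower.

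**Figure D5:**
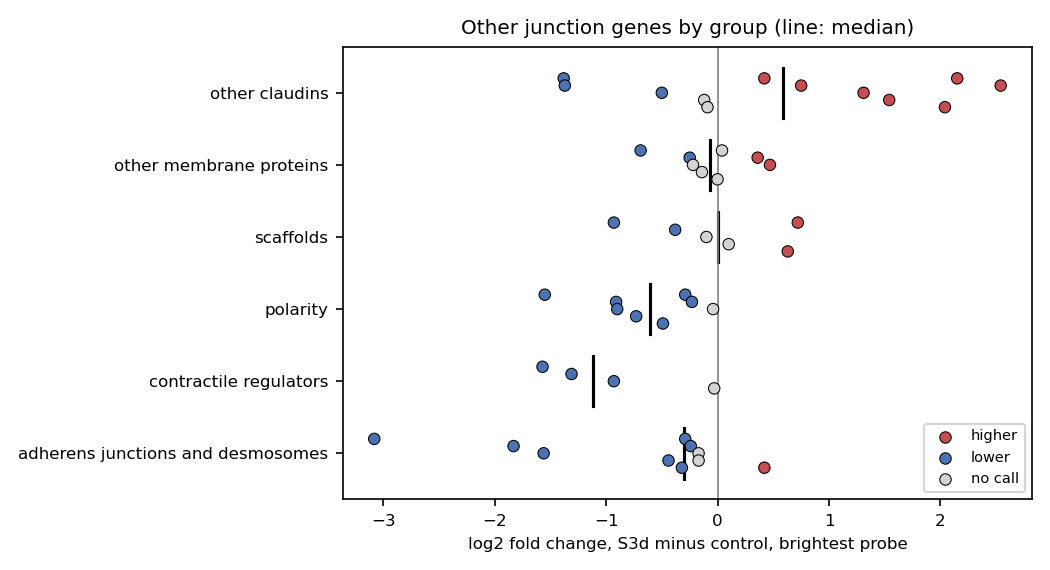
Log2 fold change of the brightest probe of each of the 48 tested junction genes outside the 9, by group, S3d minus control by the scanner labels and relative to the 75th percentile of the array. Red points were called higher, blue points lower and grey points not called, and the vertical strokes are group medians, from -1.12 for the contractile regulators to 0.58 for the other claudins, of which the 4 tested only through the S3d arrays are among the 7 red points.

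Markers of the cells in the sample moved as well. All 7 epithelial markers (Epcam, keratins, Cdh17 and Vil1) were well above background on all 6 arrays, as labelled for jejunum, and 5 were lower and 1 higher on the S3d arrays (median -0.32). Their mean log2 signal was between 6.89 and 6.92 on the control arrays and between 6.54 and 6.56 on the S3d arrays. Of 8 villus enterocyte markers 6 were lower and 1 was higher (median -1.26), with mean levels of 7.23 to 7.47 against 6.39 to 6.50. These are among the brightest probes of the array, where the median of all probes was also below 0. With quantile normalization 6 of the 7 epithelial markers were higher and none lower (median 0.24), and the enterocyte markers had 2 higher and 2 lower (median -0.05), so the direction of both lists turned or was lost with the scaling. Of 3 crypt markers with a probe 2 were higher (Olfm4, a crypt base gene, by 2.87) and 1 was lower, with mean levels of -0.86 to -0.55 against 0.36 to 0.49. Only 1 crypt marker was called higher without S3d replicate 1, with quantile normalization, with median centring or with the local background subtracted (median 0.01). All 6 leukocyte markers were lower (median -0.72, 1.39 to 1.61 against 0.47 to 0.58), and 5 were higher and 1 lower with the arrays unscaled. Of 4 goblet and Paneth markers 2 were lower and none higher (median -0.38, or 0.29 with quantile normalization). Smooth muscle (1 of 5 higher, 2 lower, median -0.11) and endothelium (1 of 4 higher, 1 lower, median 0.23) were divided. The part of these shifts in the values of the 9 genes was not tested.

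For each of the 9 genes, the named gene with the most similar values over the 6 arrays was found by Euclidean distance, after each gene was centred on its own mean, among 10305 candidates outside these lists. It was Myc for Cldn3 (distance 0.12), Ces1d for Cldn7 (0.17), Uap1l1 for Cldn2 (0.16), Cdk1 for Cldn15 (0.07), Arhgap18 for Cldn4 (0.11), Tmem126a for Ocln (0.06), Wdr5b for F11r (0.06), Tubb3 for Tjp1 (0.07) and Agxt for Cldn1 (0.36). With 3 arrays per group the distance mostly reflects the size of the group difference. Between 156 genes (Cldn1) and 6079 genes (Ocln) lay within a distance of 1.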

How the data were processed

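The authors deposited the scanner output of 6 arrays from Agilent Feature Extraction 10.7 (version as given in the submitters' processing notes). The deposited intensity values used are the processed signal, corrected for background by that program and not normalized between arrays, and the median spot and local background signals. They also deposited a table of quantile-normalized log2 values (columns with a common median of 6.65), used only as an alternative, since its group labels are opposite to those of the scanner output.

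Control spots and outlier spots were left out and repeated spots averaged. The log2 processed signal was set relative to the 75th percentile of its array. A probe was tested if every array of the control group, or every array of the S3d group, had it well above background. The comparison was fitted in R 4.3.3 by limma 3.58.1 (lmFit, eBayes, no block), with p-values adjusted over all 31367 probes (Benjamini-Hochberg). A call is an adjusted p under 0.05. The brightest probe stands for a gene, and differences between probes of a gene were tested in the same way. Tested on simulated data for 31137 probes, the fit recovered 67% of changes of size 1 (log2) and 34% of changes of size 0.6, with 5 false calls.

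Probes were named by RefSeq accession (17512 of 41012). Genes were named by rule: the 9 members, and the 3 highest and 3 lowest called genes of the junction list; the pancreatic and liver genes, Olfm4 and the smooth muscle markers were named after their values were seen. The members, lists and tests were chosen with earlier results of these data known. Scanner files hold no mean signal, so normexp used the median signal. The number of arrays limits the precision. Another stress group of the study was not analysed here.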

Additional observations from a re-analysis of the deposited data

Results flagged for a closer look

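The second Cldn1 probe (A_43_P12641) was outside the comparison because it was too dim, yet it was well above background on 1 of the 3 arrays labelled S3d and on none of the control arrays. Its log2 signal was -7.38 ± 0.70 (SD, n = 3) on the control arrays and -6.21 ± 0.26 on the S3d arrays. As only 1 array was above background, no direction is read from this probe.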

How the results depend on the processing

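As called on their brightest probe over all 6 arrays, the 9 genes kept their direction and their call with quantile normalization, without a filter on dim probes, with outlier spots kept, with an intensity trend, with array weights, with the analysis of variance of the methods and with any 1 array left out. Leaving out 1 array in turn gave between 15981 and 16463 changed probes (16450 with all arrays), 14 to 15 member probes called (the dimmer Cldn4 probe was the one lost), 9 member genes called, 31 to 36 other junction genes called (36 with all arrays), and a pore minus barrier contrast from -1.13 to -0.94. The replicate numbers did not pair the samples (correlations of deviations 0.02, 0.022 and -0.049); with the replicate block 16312 probes were changed, 22213 rather than 23186 were called, and 14 of 15 member probes and all 9 genes were called.

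The pore minus barrier contrast was -1.19 with quantile normalization, -0.33 among probes above background on all 6 arrays, -0.35 with normexp, -0.52 with the local background subtracted and an offset of 50, -1.65 without Cldn7, -0.33 without Cldn1 and 1.19 by the labels of the deposited table. Without scaling 28900 probes were changed (98.8% higher rather than 55.6%), and with spike-in scaling 30565; with median centring 44.2% of the changed probes were higher, and with the local background subtracted 22.7%. Without scaling Cldn3 was at 0.76, Cldn2 at 0.31 and Cldn15 at 1.27; with spike-in scaling Cldn3 was at 1.43, Cldn7 at 0.57, Cldn2 at 0.98 and Cldn15 at 1.94. By the labels of the deposited table Cldn1 was at -1.55, Cldn3 at 0.80, Cldn4 at -1.29, Cldn7 at 1.29, Cldn2 at 1.49, Cldn15 at 0.52, Ocln at -0.60, F11r at -0.63 and Tjp1 at -0.40. The mean over all probes put Tjp1 at -0.87, and the probe that is brightest on the control arrays alone put it at -2.07 (4 genes higher and 5 lower). A fold change of at least 1.5 as a further condition left 5 of the 9 genes.

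Normexp could not be fitted to control replicate 3: the first percentile of its corrected signal was 968, against 56.0 to 61.4 on the other arrays, although before correction it was alike on the control arrays. With it 1754 probes were changed, 4 member probes, 0 of the 9 genes (limma, 3 at an unadjusted p under 0.05; the analysis of variance called 9 on the uncorrected values) and 2 other junction genes were called, with Cldn1 at -1.14 and Tjp1 at -0.20. Plain subtraction of the local background with an offset of 50, the spike-in scaling, the contrast without Cldn1, the brightest probe on the control arrays and the probe differences without S3d replicate 1 were added after seeing the data. With that subtraction 15230 probes were changed and 7 of the 9 genes called, with Cldn1 at -0.15 and Tjp1 at 0.21 not called. Signals near background limit what can be said of Cldn1, Cldn6, Cldn19 and Cldn22. Other causes were not tested.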
